A study of Homo sapiens with 4 samples.

Results

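The mRNAs of 10 glycolytic enzymes were examined in RNA immunoprecipitation sequencing (RIP-seq) of KIAA1429, a regulatory subunit of the complex that writes N6-methyladenosine (m6A) on RNA. They were HK2, GPI, ALDOA, TPI1, GAPDH, PGK1, PGAM1, ENO1, PKM and LDHA, which act on the path from glucose to lactate. The phosphofructokinases, which act between GPI and ALDOA, are not members and are counted below in the list of isoenzymes. Their rows were taken by gene name, and all 10 were found among the 13300 gene names in the files, with 57 of the 34975 listed transcripts. In RIP-seq the RNAs bound to a protein are pulled down with it, and the comparison of antibody with normal IgG asks which RNAs were associated with KIAA1429. All libraries came from HCCLM3, an established human hepatocellular carcinoma cell line, with no other treatment named in the labels. Beads coated with normal IgG gave the IgG RIP group (2 replicates), and beads coated with an antibody against KIAA1429 gave the KIAA1429 RIP group (2 replicates). Both groups are precipitates of the same line, no unprecipitated input library was used here, and a difference between them is a difference in recovery relative to IgG. Nothing in the sources says that the replicates were separate cultures, so p-values measure only the spread between these libraries, which may be technical.

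Glycolysis splits 1 glucose into pyruvate in the cytosol and yields ATP and NADH. In liver cancer cells pyruvate is often reduced to lactate even when oxygen is present, and HK2, PKM2 and LDHA are the forms most often linked to that state. The mRNAs of the lower steps are among the most abundant of most cultured cells, and for this reason GAPDH often serves as a reference transcript. KIAA1429 is known for directing m6A to the end of the coding region and to the 3′ UTR, and the core of the m6A motif is most often the letters GGAC.

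The most abundant listed transcript of each member was read on its sense strand to see where these letters lie. Transcript models were those of the GENCODE v44lift37 annotation on GRCh37, which held 52 of the 57 member transcripts. GGAC was present in all 10 members and in 99.3% of 9882 background transcripts (the most abundant protein-coding transcript of each tested gene, members included, where the annotation held it). The number of GGAC per kilobase ranged from 2.07 in ALDOA to 7.38 in PKM, with a median of 3.50 over the members against 3.61 over the 9882 transcripts. A GGAC within 100 bases of the stop codon was found in 5 of the 10 members and in 58.4% of the 9882 transcripts. The 30 bases around the GGAC nearest to the stop codon are shown for these 5 members, because this is the stretch where KIAA1429 is known to act. Each is written 5′ to 3′ on the gene's strand, with GGAC in capitals.
HK2 (chr2:75118044-75118073, plus strand, coding): catccgtgaggctGGACagcgatagaaccc
GPI (chr19:34891011-34891040, plus strand, 3′ UTR): actgcatgttcctGGACaccacccagagca
TPI1 (chr12:6979510-6979539, plus strand, coding): agcccgaattcgtGGACatcatcaatgcca
GAPDH (chr12:6647331-6647360, plus strand, 3′ UTR): gagtaagacccctGGACcaccagccccagc
PKM (chr15:72491973-72492002, minus strand, 3′ UTR): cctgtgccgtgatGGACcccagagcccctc
The A of GGAC lay 4 bases after the stop codon in PKM, 10 bases after it in GAPDH and 85 bases after it in GPI. In the other 5 members (ALDOA, PGK1, PGAM1, ENO1 and LDHA) the nearest GGAC lay more than 100 bases from the stop codon. Such letters are a description of the transcript, and methylation was not measured in these libraries. The median length of these member transcripts was 1862 bases against 3159, and the median 3′ UTR was 593.5 bases against 1214, but HK2 (5626 bases), PGK1 (4812) and GPI (4125) were above both background medians.

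The 4 libraries were alike in make-up. The deposited values are FPKM, that is, fragments corrected for the length of a transcript and the size of a library. The FPKM summed to 295573 and 315446 in IgG RIP and to 337041 and 340300 in KIAA1429 RIP, and since reads were not counted here, depth is unknown and counting error is not given. Spearman's rho across the 11361 gene totals tested was 0.849 for the IgG RIP pair, 0.872 for the KIAA1429 RIP pair and 0.833 to 0.885 between groups. These genes are not independent replicates. The 12 hepatocyte and hepatoma markers examined, ALB and AFP among them, had summed FPKM of 1649 and 1453 in IgG RIP, against 1762 and 1658 in KIAA1429 RIP. The cholangiocyte markers KRT7, KRT19 and SOX9 summed to 270 to 384 FPKM. Of 5 fibroblast markers COL1A1 and COL1A2 were not listed and the other 3 summed to 31.5 to 47.7 FPKM. Among them, named after their values were seen, PDGFRB was 1.204 and 1.05 FPKM in IgG RIP, against 4.88 and 3.17 FPKM in KIAA1429 RIP, with the groups apart (limma adjusted p = 0.997), and COL3A1 was 15.1 and 12.2 FPKM, against 12.3 and 7.46 FPKM. No endothelial or erythroid marker was listed, and the only leukocyte marker listed was CD68. It had 34.5 and 72.2 FPKM in IgG RIP, against 28.7 and 43.9 FPKM in KIAA1429 RIP, and its part in the results was not tested.

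None of the glycolytic enzyme mRNAs passed the test of KIAA1429 RIP against IgG RIP, and their levels in the groups were within 1.39-fold of each other. From the gene totals, which are the FPKM summed over the listed transcripts of a gene, the ratio of the KIAA1429 RIP mean to the IgG RIP mean ranged from 0.814 for ALDOA to 1.39 for GAPDH. The log2 ratio was above 0 for 7 members and below 0 for 3, and the split of the limma log2 fold changes was 5 and 5 when libraries were scaled to an equal FPKM sum and 3 and 7 after quantile normalization. For 9 of the 10 members this log2 ratio was smaller than its error, and TPI1 was the exception. This error is the root of the sum of the squared SDs of both groups' log2 values. It is the spread of single libraries, wider than a standard error of the difference of means, so the count is no test. By limma on log2(FPKM + 1), on which changes of low genes come out too small, 0 of the 10 members passed a log2 fold change beyond 1 with an adjusted p under 0.05, and in the same fit 0 of all 11361 gene totals passed (0%). At an unadjusted p under 0.05 the counts were 0 of 10 members and 522 gene totals (4.59%). The adjusted p of the members from limma ran from 0.997 to 0.998 (Benjamini-Hochberg over the 11361 gene totals). The standard errors of the limma log2 fold changes were 0.29 to 0.52, and with this spread and 2 libraries in a group, a p that misses the threshold does not show that the levels were equal. An exact permutation test of 2 libraries against 2 cannot give a p below 0.333.

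**Figure D1:**
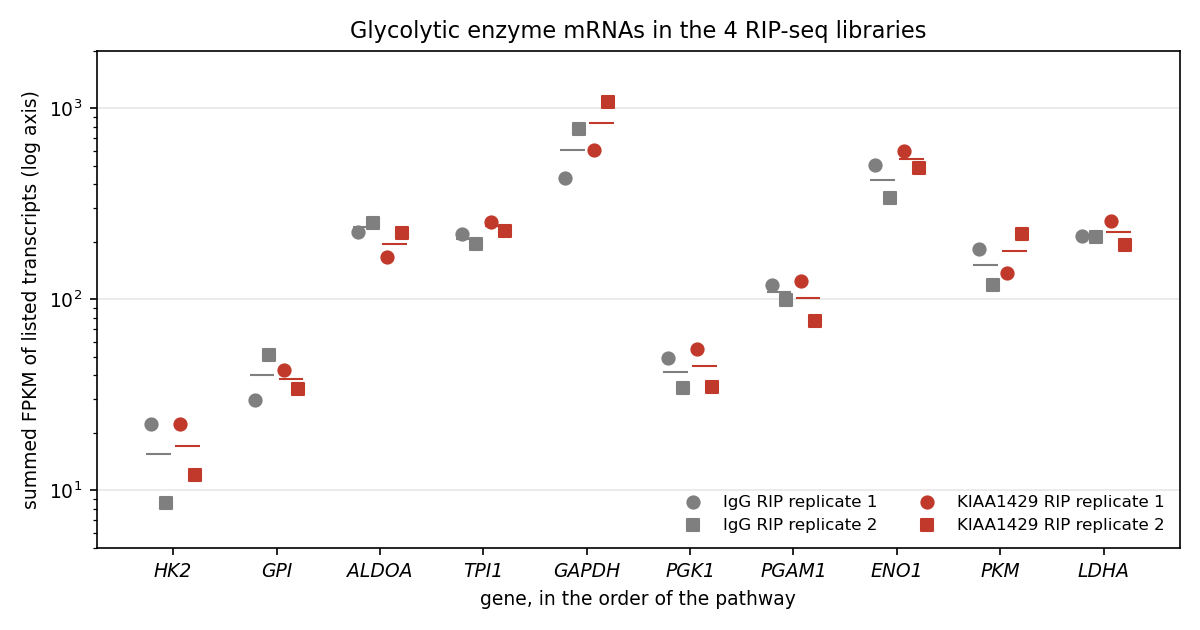
Summed FPKM of each glycolytic enzyme gene (log axis) in the 4 libraries, with IgG RIP in grey, KIAA1429 RIP in red, circles for replicate 1, squares for replicate 2 and a short line at the mean of each group. The groups overlap for every gene except ALDOA, where both KIAA1429 RIP values are lower, and TPI1, where both are higher.

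In the preparatory steps, hexokinase 2 traps glucose in the cell as glucose 6-phosphate. HK2 (chr2:75061108-75120486) was 22.3 and 8.62 FPKM in the IgG RIP replicates, against 22.2 and 12.02 FPKM in the KIAA1429 RIP replicates. Replicate 1 was the higher library in each group and the groups overlapped. The means were 15.5 ± 9.67 (SD, n = 2) in IgG RIP, against 17.1 ± 7.21 (SD, n = 2) in KIAA1429 RIP, with a log2 ratio of 0.15 and an error of 1.15. Glucose-6-phosphate isomerase turns glucose 6-phosphate into fructose 6-phosphate. GPI (chr19:34855645-34893061) was 29.6 and 51.0 FPKM in IgG RIP, against 42.5 and 33.9 FPKM in KIAA1429 RIP. Both KIAA1429 RIP values lay between the IgG RIP values, and the log2 ratio of the means was -0.08 with an error of 0.60.

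Aldolase A cleaves fructose 1,6-bisphosphate into the triose phosphates, and triosephosphate isomerase interconverts them. ALDOA (chr16:30064411-30081741) was 226 and 252 FPKM in IgG RIP, against 167 and 223 FPKM in KIAA1429 RIP. The higher KIAA1429 RIP value was just under the lower IgG RIP value. The means were 239 ± 18.3 (SD, n = 2) and 195 ± 39.7 (SD, n = 2), and the log2 ratio was -0.30 with an error of 0.32 (limma log2 fold change -0.31, SE 0.31, adjusted p = 0.997). TPI1 (chr12:6976283-6980112) was 220 and 194 FPKM in IgG RIP, against 253 and 228 FPKM in KIAA1429 RIP. Both KIAA1429 RIP values exceeded both IgG RIP values, with means of 241 ± 17.9 (SD, n = 2) and 207 ± 18.2 (SD, n = 2). The log2 ratio of 0.22 exceeded its error of 0.17, but limma gave an SE of 0.29 and an adjusted p of 0.997, and the limma log2 fold change was -0.012 after quantile normalization. ALDOA and TPI1 were the 2 members of 10 whose groups did not overlap, and over all gene totals tested the groups did not overlap for 31.8%. On its opposite strand TPI1 overlaps SPSB2, which was listed at 10.7 and 10.1 FPKM in IgG RIP, against 12.8 and 15.6 FPKM in KIAA1429 RIP. The strand setting of the counting is not given in the sources used here, so reads of the overlap cannot be told apart.

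Among the enzymes of the payoff phase, glyceraldehyde-3-phosphate dehydrogenase makes 1,3-bisphosphoglycerate and NADH. GAPDH (chr12:6643093-6647540) was the most abundant member, with 432 and 779 FPKM in IgG RIP, against 602 and 1076 FPKM in KIAA1429 RIP. Replicate 2 was the higher library in each group, and IgG RIP replicate 2 exceeded KIAA1429 RIP replicate 1. The means were 605 ± 245 (SD, n = 2) and 839 ± 336 (SD, n = 2). The log2 ratio of 0.47 was the largest of the 10 members, with an error of 0.84 (limma SE 0.47, adjusted p = 0.997), and the limma log2 fold change was 0.015 after quantile normalization. Within the same-numbered libraries the log2 ratio was 0.48 for replicate 1 and 0.47 for replicate 2, but the ratio of the means was -0.0089 without KIAA1429 RIP replicate 2, 0.11 without IgG RIP replicate 1, 0.83 without KIAA1429 RIP replicate 1 and 0.96 without IgG RIP replicate 2.

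Phosphoglycerate kinase 1 then makes ATP, and phosphoglycerate mutase 1 moves the remaining phosphate. PGK1 (chrX:77359671-77384793) was 49.2 and 34.5 FPKM in IgG RIP, against 54.9 and 34.9 FPKM in KIAA1429 RIP, a log2 ratio of 0.10 with an error of 0.59. PGAM1 (chr10:99185917-99193198) was 119 and 98.8 FPKM in IgG RIP, against 125 and 77.2 FPKM in KIAA1429 RIP, a log2 ratio of -0.11 with an error of 0.53. In both genes replicate 1 was above replicate 2 in each group, and the KIAA1429 RIP replicates spread more widely than the IgG RIP replicates. Enolase 1 removes water to give phosphoenolpyruvate. ENO1 (chr1:8921061-8939308) was 503 and 340 FPKM in IgG RIP, against 598 and 487 FPKM in KIAA1429 RIP. KIAA1429 RIP replicate 2 lay just below IgG RIP replicate 1, so the groups overlapped. The log2 ratio was 0.37 with an error of 0.45 (limma adjusted p = 0.997), and the limma log2 fold change was -0.11 after quantile normalization.

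The final steps make pyruvate and lactate. PKM (chr15:72491370-72524021), which encodes pyruvate kinases M1 and M2, was 184 and 119 FPKM in IgG RIP, against 138 and 221 FPKM in KIAA1429 RIP. The highest and the lowest library were replicate 2 of the KIAA1429 RIP and IgG RIP groups. The log2 ratio was 0.25 with an error of 0.65, made of -0.41 within replicate 1 and 0.89 within replicate 2. LDHA (chr11:18415935-18429972), the lactate dehydrogenase subunit that favours lactate, was 214 and 211 FPKM in IgG RIP, against 258 and 191 FPKM in KIAA1429 RIP. The KIAA1429 RIP replicates lay on either side of the IgG RIP replicates, and the log2 ratio was 0.08 with an error of 0.31.

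**Figure D2:**
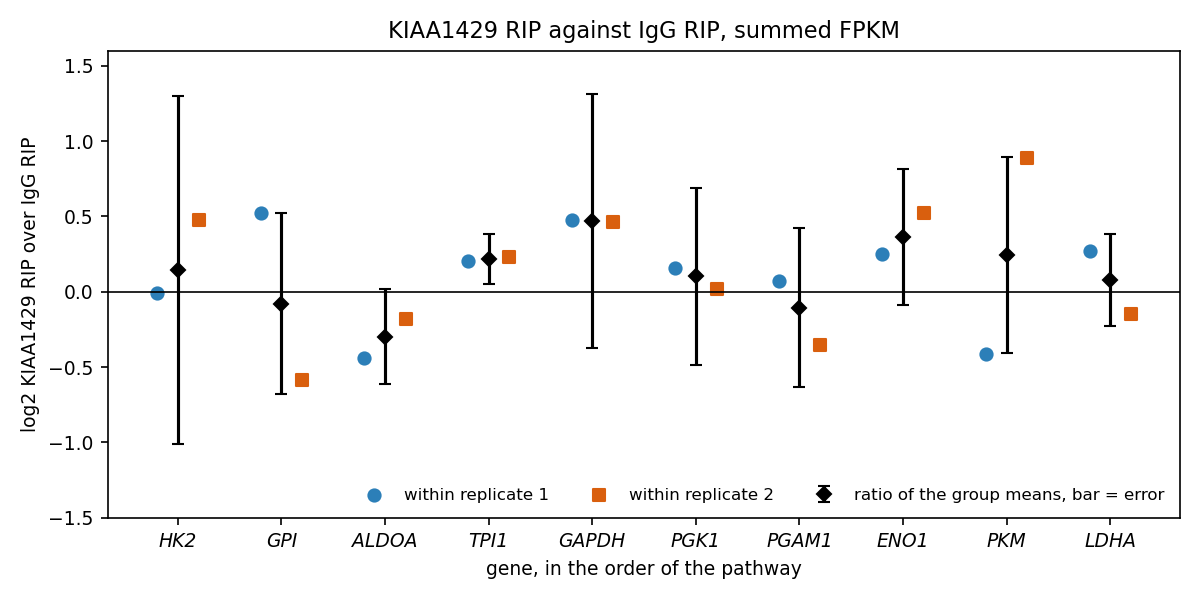
Log2 ratio of KIAA1429 RIP to IgG RIP for each gene, as the ratio of the group means with its error (black diamonds and bars) and within replicate 1 (blue circles) and replicate 2 (orange squares). The bars give the spread of single libraries and are wider than standard errors of the difference of means. The bar reaches 0 for every gene except TPI1, and replicate 1 and replicate 2 fall on opposite sides of 0 for HK2, GPI, PGAM1, PKM and LDHA.

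Within same-numbered libraries, 4 members were higher in KIAA1429 RIP in both comparisons (TPI1, GAPDH, PGK1 and ENO1), against 27.4% of all gene totals tested, and of these TPI1, PGK1 and ENO1 had a limma log2 fold change below 0 after quantile normalization. ALDOA was the 1 member lower in both, against 25.3%. The other 5 members changed direction between replicate 1 and replicate 2. None of the 10 had group means at least 2-fold apart, against 13.7% of all gene totals, and all 10 lay among the 3396 most abundant gene totals. The median log2 ratio was 0.12 over the members and 0.0088 over all gene totals tested, and the members' median was -0.13 without KIAA1429 RIP replicate 1 and -0.038 with an equal FPKM sum.

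The FPKM summed over the 10 members was 1998 and 2088 in IgG RIP, against 2261 and 2584 in KIAA1429 RIP. Both KIAA1429 RIP sums lay above both IgG RIP sums, with a log2 ratio of 0.25 and an error of 0.14, and the ratio was -0.094 after quantile normalization. As a share of all FPKM in the library, the members held 0.676% and 0.662% in IgG RIP, against 0.671% and 0.759% in KIAA1429 RIP, and on this scale the groups overlapped. GAPDH carried much of the sum. Without it, an alternative added after the values were seen, the sums were 1566 and 1309 FPKM in IgG RIP, against 1659 and 1508 FPKM in KIAA1429 RIP, and the groups overlapped, with a log2 ratio of 0.14 and an error of 0.21.

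Single replicates of a group lay further apart than the group means did. Means of 2 libraries vary less than single libraries, so part of this order is built in. The median size of the log2 difference was 0.54 within IgG RIP, 0.54 within KIAA1429 RIP and 0.18 between the group means. For the 3393 gene totals at least as abundant as HK2, the lowest member, and above 0 in all 4 libraries, the medians were 0.44, 0.32 and 0.25. There too the group means were the least apart. In 8 of the 10 members the difference of replicate 2 from replicate 1 had the same sign in both groups, against 63.1% of these 3393 gene totals. GAPDH and ALDOA were higher in replicate 2 of both groups, with log2 differences of 0.85 and 0.84 for GAPDH. HK2, TPI1, PGK1, PGAM1, ENO1 and LDHA were lower in replicate 2 of both groups, with -1.37 and -0.89 for HK2. GPI and PKM differed in sign between the groups.

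**Figure D3:**
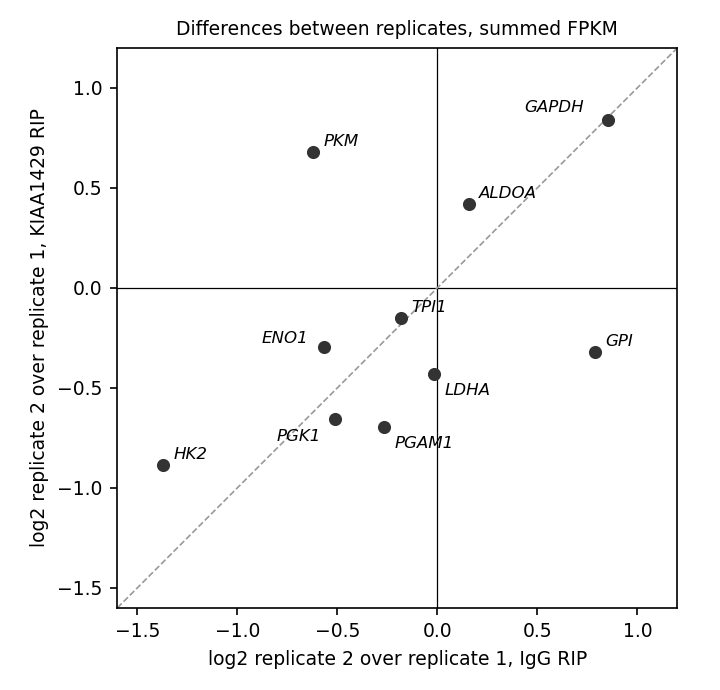
Log2 ratio of replicate 2 to replicate 1 within IgG RIP (horizontal axis) and within KIAA1429 RIP (vertical axis), with 1 point per gene and a dashed line where both are equal. GAPDH and HK2 sit at opposite ends, GAPDH near the line and HK2 above it, and GPI and PKM lie in the quadrants where the groups differ in sign.

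FPKM is scaled by length, so levels can be set side by side between genes. By the mean over the 4 libraries the order was GAPDH (722 FPKM), ENO1 (482), TPI1 (224), LDHA (219), ALDOA (217), PKM (165), PGAM1 (105), PGK1 (43.4), GPI (39.3) and HK2 (16.3). Of the neighbours in this order, the ranges over the 4 libraries were apart for ENO1 and TPI1, for PGAM1 and PGK1, and for GPI and HK2. The other neighbours overlapped, although ALDOA was above PKM and PKM above PGAM1 in each of the 4 libraries. TPI1, LDHA and ALDOA could not be ordered, with TPI1 above LDHA in 2 of 4 libraries and LDHA above ALDOA in 1 of 4. The members lay between rank 43 (GAPDH) and rank 3396 (HK2) of the 11361 gene totals tested. ALDOA, TPI1 and the enzymes that follow them were in the top 3.60% of gene totals, except PGK1 at 10.5%, and the entry enzymes GPI and HK2 were at 11.8% and 29.9%.

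At the level of transcripts, 51 of the 57 listed had a mean of at least 1 FPKM and were tested, and 6 were not. By limma 0 of the 51 passed the thresholds, and 0 of the 23375 transcripts tested in the whole files passed (0%). The adjusted p of the member transcripts from limma was 0.844 or higher, and 2 of the 51 had an unadjusted p under 0.05 (GPI-211 and TPI1-210), against 5.36% of all transcripts. Of the 57, 21 were listed at 0 in at least 1 library. The 42 less abundant member transcripts with a model in the annotation shared a median of 83.5% of their bases with the most abundant transcript of the gene, so how reads were divided between them affects each value. The sources used here do not name the tool that divided them.

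ALDOA had 17 listed transcripts and the least stable split. ALDOA-202 (ENST00000395240), its most abundant transcript, was 170 and 135 FPKM in IgG RIP, was listed at 0 in KIAA1429 RIP replicate 1 and was 80.6 FPKM in KIAA1429 RIP replicate 2. ALDOA-226 (ENST00000569798) was 86.3 FPKM in KIAA1429 RIP replicate 1, the library where ALDOA-202 was at 0, and 0.671, 3.33 and 4.06 FPKM in the others. These transcripts shared 93.9% of the bases of ALDOA-226. Their sum, taken after the values were seen, was 171 and 139 FPKM in IgG RIP, against 86.3 and 84.6 FPKM in KIAA1429 RIP. The remaining ALDOA transcripts together were 55.2 and 113 FPKM in IgG RIP, against 80.4 and 138 FPKM in KIAA1429 RIP, with the groups overlapping. The limma log2 fold change of ALDOA-202 was -4.08 (SE 2.09, adjusted p = 0.879), and it was -0.91 without KIAA1429 RIP replicate 1.

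The split also changed for LDHA. LDHA-203 (ENST00000379412) was 60.6 and 3.27 FPKM in IgG RIP, against 140 and 90.9 FPKM in KIAA1429 RIP, which was 28.3% and 1.55% of the gene total in IgG RIP, against 54.0% and 47.5% in KIAA1429 RIP. The groups were apart, but IgG RIP replicate 2 was further from IgG RIP replicate 1 than either KIAA1429 RIP value was on the log scale. Its limma log2 fold change was 2.81 (SE 1.30, adjusted p = 0.879), and it was 0.88 without IgG RIP replicate 2. LDHA-201 was 79.0 FPKM in that IgG RIP replicate 2 and between 15.5 and 19.2 FPKM in the others. LDHA-205 was 69.7 and 89.1 FPKM in IgG RIP, against 49.5 and 41.8 FPKM in KIAA1429 RIP, opposite in direction to LDHA-203. Both are named after their values were seen.

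TPI1-210 (ENST00000613953) was the only member transcript with a mean of at least 5 FPKM, of 31, whose KIAA1429 RIP values were both at least 2-fold below both IgG RIP values. Over the 8870 transcripts at this level 2.11% were lower by this measure and 2.66% higher. It was 21.9 and 3.06 FPKM in IgG RIP, against 0.805 and 0.134 FPKM in KIAA1429 RIP. It met the 5 FPKM filter only through IgG RIP, where it was high, so its selection is not support for a difference. IgG RIP replicate 1 stood far above the other 3 libraries. The limma log2 fold change was -2.75 (SE 1.00, adjusted p = 0.879). It was -1.51 without IgG RIP replicate 1. TPI1-202, which held most of the TPI1 FPKM in every library, was 176 and 189 FPKM in IgG RIP, against 242 and 224 FPKM in KIAA1429 RIP, higher in both KIAA1429 RIP replicates (limma adjusted p = 0.879).

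GPI-201 was 25.6 and 21.2 FPKM in IgG RIP, against 34.9 and 29.9 FPKM in KIAA1429 RIP, with the groups apart, unlike the GPI total. It held 86.3% and 41.6% of the GPI total in IgG RIP, against 82.2% and 88.1% in KIAA1429 RIP. Its limma log2 fold change was 0.46 (SE 0.32, adjusted p = 0.879). GAPDH-201 was 343 and 657 FPKM in IgG RIP, against 538 and 910 FPKM in KIAA1429 RIP, ENO1-201 was 494 and 337 FPKM and 590 and 481 FPKM, and PGK1-201 was 46.4 and 26.0 FPKM and 49.2 and 32.9 FPKM, and in all of these the groups overlapped. HK2 and PGAM1 each had 1 listed transcript, which is their gene total.

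**Figure D4:**
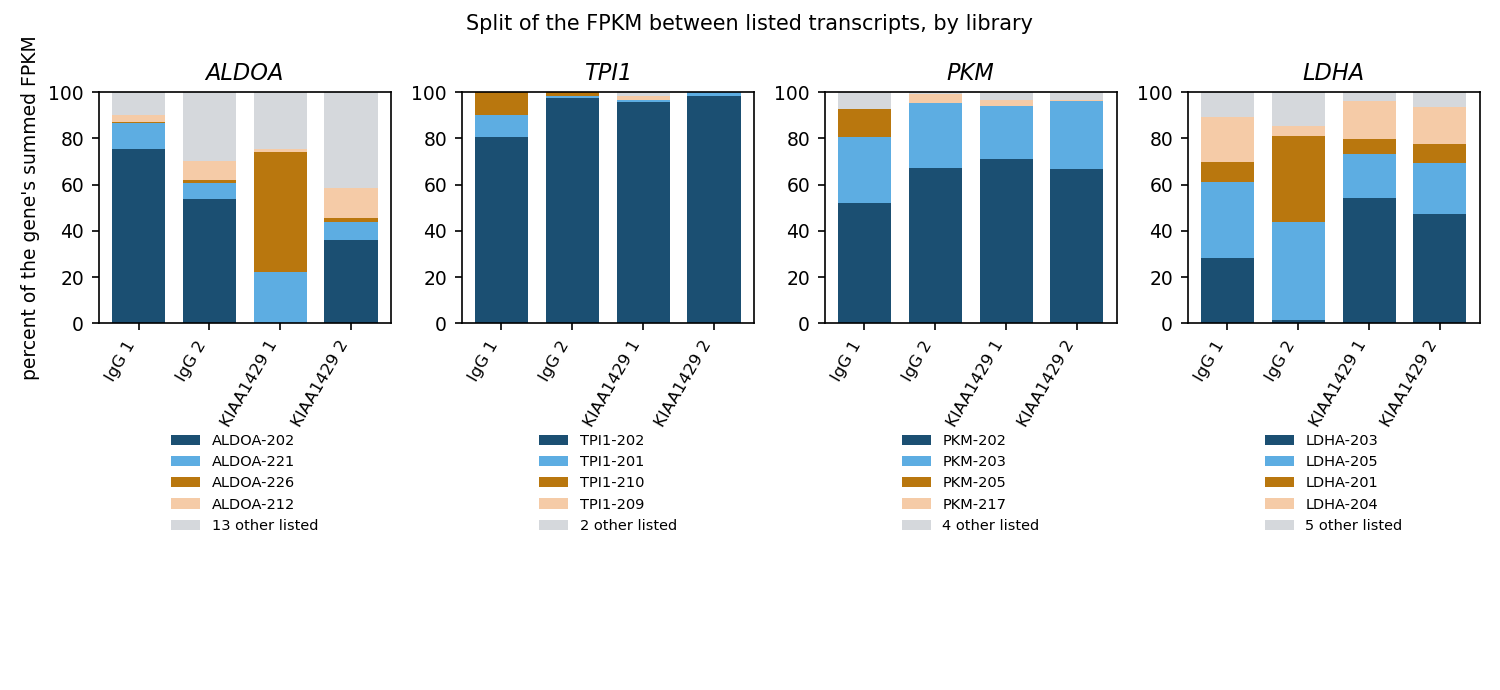
Percent of the summed FPKM of ALDOA, TPI1, PKM and LDHA held by the 4 most abundant listed transcripts and by the others together, in each of the 4 libraries. TPI1-202 and PKM-202 hold the largest part of their genes in every library, whereas ALDOA-202 is listed at 0 in KIAA1429 RIP replicate 1 and LDHA-203 falls to 1.55% in IgG RIP replicate 2.

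PKM has a pair of mutually exclusive exons, exon 9, which makes the M1 form of muscle and brain, and exon 10, which makes the M2 form of proliferating cells. On GRCh37 exon 9 lies at chr15:72495363-72495529 and exon 10 at chr15:72494795-72494961 on the minus strand. Both are 167 bases long, and 62.9% of their aligned bases are identical. Bases 54 to 83 of each are shown because reads here tell the forms apart, with the 20 differing bases in capitals, 5′ to 3′ on the gene's strand.
exon 9 (chr15:72495447-72495476): TGTGcgAGCCTcAAGTCACTccaCAgaccT
exon 10 (chr15:72494879-72494908): CCGCcgCCTGGcGCCCATTAccaGCgaccC
Of the 8 listed PKM transcripts 3 held exon 9, 2 held exon 10 and 3 held neither. The exon 10 transcripts were 148 and 113 FPKM in IgG RIP, against 130 and 212 FPKM in KIAA1429 RIP. The exon 9 transcripts were 31.5 and 0.897 FPKM in IgG RIP, against 4.99 and 0.950 FPKM in KIAA1429 RIP. The M2 form thus made up nearly all PKM in 3 libraries, and IgG RIP replicate 1 held the largest exon 9 part. Exon 10 transcripts were 82.4% and 99.2% of both in IgG RIP, against 96.3% and 99.6% in KIAA1429 RIP, with means of 90.8% ± 11.9 (SD, n = 2) and 97.9% ± 2.30 (SD, n = 2). The difference of 7.11 percentage points was smaller than the IgG RIP SD, and it was -1.29 points without IgG RIP replicate 1 and 15.5 points without IgG RIP replicate 2. PKM-202 (ENST00000335181), the main exon 10 transcript, was 95.8 and 80.1 FPKM in IgG RIP, against 98.3 and 147 FPKM in KIAA1429 RIP, with the groups apart by a small margin (limma adjusted p = 0.879).

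GAPDH, which differed by up to 2.49-fold between these libraries, is also a control of the study's quantitative PCR. The GAPDH primers that the study lists for it were placed on GRCh37. The libraries are precipitates, so their spread does not measure the GAPDH level in total RNA of the cells. In the forward primer the capitals mark the 18 bases past an exon junction, which joins position 6645956 to 6646086 of chromosome 12 in GAPDH-201.
GAPDH forward: ggaGCGAGATCCCTCCAAAAT
GAPDH reverse: ggctgttgtcatacttctcatgg
The reverse primer matched chr12:6646347-6646369, and together they span 197 bases of the spliced coding transcript. Both matched all 5 listed GAPDH transcripts, so this product reads the GAPDH gene total rather than a form of it. The forward primer had 0 exact matches in the unspliced GAPDH gene and 5 elsewhere in the genome, and the pseudogene GAPDHP60 held both primers. No pseudogene of GAPDH was listed in the files, and the only listed pseudogene of a member was TPI1P2. It had 0.739 and 0.665 FPKM in IgG RIP and was listed at 0 in both KIAA1429 RIP replicates, below the level tested.

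In the rest of the pathway no gene passed the test either. Of 53 other genes in lists of isoenzymes, regulators, transporters, pyruvate entry, gluconeogenesis and member pseudogenes, 36 were listed and 31 tested, of which 0 passed the limma thresholds and 0 had an unadjusted p under 0.05. Their limma log2 fold changes were above 0 for 17 and below 0 for 14, with a median of 0.027 against 0.017 over all gene totals. By list the median was -0.011 for 11 isoenzymes, 0.22 for 4 regulators, -0.024 for 5 transporters, 0.064 for 7 genes of pyruvate entry and 0.0085 for 4 of gluconeogenesis.

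LDHB, the lactate dehydrogenase subunit that favours pyruvate, was the most abundant isoenzyme, with 327 and 300 FPKM in IgG RIP, against 316 and 346 FPKM in KIAA1429 RIP, and it exceeded LDHA in every library. PFKL, the liver phosphofructokinase that commits sugar to glycolysis, was 13.5 and 18.6 FPKM in IgG RIP, against 23.6 and 24.7 FPKM in KIAA1429 RIP. The groups of PFKL were apart and its p was the lowest of the isoenzymes (log2 fold change 0.57, SE 0.33, limma adjusted p = 0.997). The other phosphofructokinases, PFKP and PFKM, are named after their values were seen. Their means over all libraries, 86.9 FPKM for PFKP and 23.6 FPKM for PFKM, were above that of PFKL (20.1 FPKM). For both the groups overlapped, with limma log2 fold changes of -0.031 (SE 0.30) for PFKP and -0.63 (SE 0.61) for PFKM. The step as a whole thus showed no common direction. PFKFB3, which makes the activator of phosphofructokinase, was 13.5 and 15.2 FPKM in IgG RIP, against 6.15 and 20.6 FPKM in KIAA1429 RIP, and its relative PFKFB4 had the lowest p of the regulators (log2 fold change 0.69, SE 0.67, limma adjusted p = 0.997).

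The lactate exporter SLC16A3 was 67.0 and 67.9 FPKM in IgG RIP, against 55.4 and 60.3 FPKM in KIAA1429 RIP. SLC16A1, a carrier of lactate in either direction, was 26.4 and 16.0 FPKM in IgG RIP, against 12.1 and 14.9 FPKM in KIAA1429 RIP (log2 fold change -0.58, SE 0.37, limma adjusted p = 0.997). For both carriers the KIAA1429 RIP values were the lower ones and the groups were apart, as they were for 31.8% of all gene totals tested. By list the groups were apart for 1 of 11 isoenzymes, 2 of 4 regulators, 2 of 5 transporters, 3 of 7 genes of pyruvate entry and 1 of 4 of gluconeogenesis. PDHA1, a subunit of pyruvate dehydrogenase, was 27.1 and 18.7 FPKM in IgG RIP, against 21.6 and 24.4 FPKM in KIAA1429 RIP. MPC1, of the mitochondrial pyruvate carrier, was 4.04 and 6.64 FPKM in IgG RIP, against 9.09 and 6.93 FPKM in KIAA1429 RIP (log2 fold change 0.53, SE 0.44, limma adjusted p = 0.997). G6PC3, a glucose-6-phosphatase that opposes hexokinase, was 21.5 and 38.7 FPKM in IgG RIP, against 15.8 and 18.2 FPKM in KIAA1429 RIP, and its unadjusted p was the lowest of these glycolysis lists (log2 fold change -0.73, SE 0.38, limma adjusted p = 0.997). No enzyme of either direction, glycolysis or gluconeogenesis, passed the test.

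KIAA1429 itself, listed under its current symbol VIRMA, was 18.0 and 10.01 FPKM in IgG RIP, against 18.2 and 11.6 FPKM in KIAA1429 RIP. Replicate 1 was the higher library in each group, as for HK2, and the log2 ratio was 0.09 with an error of 0.75. Among 424 genes outside the lists with a mean of at least 100 FPKM, those whose centred log2 FPKM over the 4 libraries lay nearest to the summed members were SARS (seryl-tRNA synthetase, distance 0.0454), CALM2 (a calmodulin gene, distance 0.106) and CCT4 (a chaperonin subunit, distance 0.110), where the median distance was 0.641. SARS was 97.3 and 106 FPKM in IgG RIP, against 111 and 126 FPKM in KIAA1429 RIP. With 4 libraries such closeness is only a description of these values.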

How the data were processed

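HCCLM3 precipitates with KIAA1429 antibody or normal IgG (2 libraries each) were grouped by the sample titles. The authors made libraries from poly(A) RNA of the precipitates and aligned reads to GRCh37/hg19. The paper names HISAT2 for this step, and the submitters' processing notes name Bowtie2 2.1.0. The authors deposited FPKM per transcript, without a stated scaling between libraries. The tool that estimated FPKM and the annotation release are not given in the sources used here. The same transcripts are listed for each library, each with at least 0.5001 FPKM as the mean of its higher group. Read depth is unknown.

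FPKM were summed per gene name. Values were taken as log2(FPKM + 1), and the 11361 gene totals and 23375 transcripts whose mean reached 1 FPKM were fitted in limma 3.58.1 (R 4.3.3; eBayes with trend, two-sided, Benjamini-Hochberg over all features of a fit). The threshold for a call was an adjusted p under 0.05 together with a log2 fold change past 1 in size. The study's methods name a count test, which FPKM cannot take. The limma fit was tested on simulated data. With the spread of these libraries it missed simulated rises larger than the call threshold, so a lack of calls does not show a lack of enrichment. Ratios, ranks and sequences were computed in Python 3.11.15 with numpy 2.4.6 and pandas 2.3.3. GGAC was searched on the sense strand of spliced transcripts. The lists of hepatocyte, cholangiocyte, fibroblast, endothelial, leukocyte and erythroid markers and of other glycolysis genes, the members and the tests were chosen with earlier results of these data known.

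Genes outside the members were named by rule: of each list the most abundant gene and that of lowest p, the 3 nearest profiles, and VIRMA. PFKP and PFKM were named after their values were seen, and their changes under the alternatives were not counted. Of each member the most abundant transcript was named, and each with a mean of at least 5 FPKM that was 2-fold apart in all libraries. Alternatives were pseudocounts of 0.1 and 0.01, no filter or a filter at 5 FPKM, median scaling (factors 0.968 to 1.04), an equal FPKM sum, quantile normalization, a replicate block, limma without trend, protein_coding transcripts, the most abundant transcript, and leaving out each library.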

Additional observations from a re-analysis of the deposited data

How the results depend on the processing

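Over 15 alternatives of the gene total fit and 13 of the transcript fit, 0 members, 0 member transcripts and 0 other glycolysis genes were called by limma, and the lowest adjusted p of a member was 0.669. That value was for the gene total of GAPDH with the replicate number as a block, and it does not cover the transcripts. In that fit 0 of 10 members were called. Among the transcripts, ALDOA-202 reached a limma log2 fold change of -7.26 without KIAA1429 RIP replicate 2, which leaves a lone library in that group. The correlation of deviations of same-numbered libraries was 0.187 across gene totals and 0.0299 across transcripts. With 2 pairs these values neither establish a pairing nor show that there was none. With the block the summed log2 ratio was 0.24 and the median 0.15.

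Scaling to an equal FPKM sum moved the median log2 ratio of all gene totals from 0.0081 to -0.15. Unlike the 0.0088 given above, these medians leave out gene totals with a group mean of 0. The summed log2 ratio (0.25) was then 0.096, and -0.094 after quantile normalization, where the limma log2 fold changes of 7 of 10 members were below 0. The median over the members (0.12) was -0.038 with an equal sum, -0.036 after quantile normalization and 0.36 with the most abundant transcript of each gene. The number of members with groups apart (2) was 1 with an equal sum (32.7% of all gene totals), 1 after quantile normalization (32.3%), 2 with median scaling (32.2%) and 5 with the most abundant transcripts (31%). Leaving out each library in turn gave 0.15 to 0.34 for the summed ratio and -1.29 to 15.5 points for the PKM exon 10 difference. For the median it gave -0.13 (without KIAA1429 RIP replicate 1) to 0.24 (without KIAA1429 RIP replicate 2). These values use the means of the remaining libraries alone. Only the limma fits with a library left out took the lone library to vary like the other group. The causes of these shifts were not tested.

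Of 474 limma log2 fold changes of named genes and transcripts under alternatives, 33 were opposite in sign to the reported one. With an equal FPKM sum these were PGK1 (-0.060), LDHA (-0.085), VIRMA (-0.033), LDHB (-0.072) and PDHA1 (-0.12). After quantile normalization they were TPI1 (-0.012), PGK1 (-0.012), ENO1 (-0.11), ENO1-201 (-0.12), LDHA (-0.071), LDHB (-0.19) and CALM2 (-0.051). With the most abundant transcript they were GPI (0.46), VIRMA (-0.50) and LDHB (-0.29), and with protein_coding transcripts SLC16A1 (0.26). Leaving out each library in turn gave ranges across 0 for HK2 (-0.42 to 0.85), GPI (-0.42 to 0.35), PGK1 (-0.23 to 0.41), PGK1-201 (-0.20 to 0.61), PGAM1 (-0.48 to 0.20), PKM (-0.10 to 0.57), LDHA (-0.15 to 0.28), VIRMA (-0.28 to 0.50), PFKFB3 (-1.10 to 0.50) and PDHA1 (-0.23 to 0.29). The sign turned without IgG RIP replicate 2 for HK2, GPI, PGK1, PGK1-201, PKM, VIRMA and PDHA1, without KIAA1429 RIP replicate 1 for HK2, PGK1, PGK1-201, LDHA, VIRMA and PFKFB3, and without KIAA1429 RIP replicate 2 for GPI, PGAM1, PKM and PDHA1. Ranges on 1 side of 0 were widest for ALDOA-202 (-7.26 to -0.91), LDHA-203 (0.88 to 4.73) and TPI1-210 (-4.00 to -1.51). They were also wide for GAPDH (0.047 to 0.90), GAPDH-201 (0.090 to 1.03), ENO1 (0.10 to 0.67) and ALDOA (-0.52 to -0.10). The same held for PFKFB4 (0.14 to 1.25), G6PC3 (-1.14 to -0.32), MPC1 (0.23 to 0.83) and SLC16A1 (-0.92 to -0.24), with the ends from leaving out an IgG RIP replicate for these 4.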
